A study of Arabidopsis thaliana with 4 samples.

Results

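Prolonged heat in wild-type seedlings was described from 2 of the 4 RNA libraries of the study. Both were made from whole wild-type (WT) seedlings of the Col-0 ecotype of Arabidopsis thaliana. The WT heat seedlings were 5 days old when they were moved to 35 °C, where they stayed for 5 days. The WT control seedlings were the plants of the same genotype not given heat, and all plants were grown at 22 °C. A second genotype that overexpresses the microRNA miR164 (miR164OE) was sampled in the same way, and its heat and control libraries are given beside the WT values. Each group was 1 library, so no spread between plants is known, no test was made, and every difference below is between single libraries. The age of the control seedlings at harvest is not given in the sources used here, so heat and age cannot be told apart.

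The deposited table lists FPKM (fragments per kilobase of transcript, scaled to the mapped fragments of the library) for 32823 rows, each with a locus code. Rows were taken where WT heat and WT control averaged 20 FPKM or more. They numbered 2485, made up of 2441 of 32538 nuclear rows, 34 of 152 mitochondrial rows and 10 of 133 plastid rows. A difference is log2(FPKM + 1) in WT heat minus log2(FPKM + 1) in WT control, and a difference of 1 or more either way, which is 2-fold, made a row higher or lower. Just above the minimum lay the rows AT4G28652, AT1G21170 and AT4G03755, with 16.5, 14.5 and 9.73 FPKM in WT heat against 23.5, 25.6 and 30.5 FPKM in WT control. Just below it lay AT5G21280, AT3G26510 and AT5G23680, with 34.7, 12.8 and 15.9 FPKM in WT heat against 5.27, 27.2 and 24.0 FPKM in WT control.

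Plants answer heat through heat shock factors, transcription factors that bind a short repeated element in promoters and turn on chaperone genes. Chaperones such as the small heat shock proteins hold unfolding proteins in a soluble state. Photosynthesis is among the most heat-sensitive processes of a leaf, and most subunits of the light-harvesting antenna and of the photosystems are encoded in the nucleus. The mitochondrion and the plastid keep small genomes of their own, which encode subunits of the respiratory and photosynthetic complexes, ribosomal proteins and many open reading frames of unknown function.

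The libraries differed in how the signal was spread. Summed FPKM was 1136254 in WT heat and 1901841 in WT control. The 10 highest rows held 27.2% of the sum in WT heat and 43.0% in WT control. Most of the nuclear signal lay on rows opposite another gene, 91.6% in WT heat and 95.4% in WT control, although the library kit keeps strand. Rows lying by 50% or more of their exon length within a coding gene of the other strand, called here rows inside that gene, held 81.6% of the nuclear FPKM in WT heat and 89.4% in WT control. Such a row is named below by its code and by the gene around it, and its value is not shown to be that gene's transcript. The strand setting of the counting is not stated. If the strands were exchanged, an own row would hold reads from the strand opposite its gene, which was not tested. For the 181 genes around rows of at least 1000 FPKM, the genes' own rows summed to 0.769% of the rows inside them in WT heat and 0.313% in WT control, a ratio of 2.46. That ratio stands beside every own-row difference below, and its part in them was not tested. Shoot markers were present, with 6 of 7 own rows at the minimum. None of 9 root markers reached it, 5 of them listed at 0 in both WT libraries, and all 6 pollen and seed markers were listed at 0. Of all 32538 nuclear rows, 2441 reached the minimum and 18469 were at 0 in both WT libraries. No tissue is therefore read as absent.

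Among the nuclear rows, 555 of 2441 (22.7%) were higher and 531 (21.8%) were lower in WT heat than in WT control, and 44.5% passed 2-fold either way. The median difference was -0.06. Past 8-fold, 148 rows were higher and 114 lower. Of the higher rows, 106 were listed at 0 in WT control, and of the lower rows 69 were listed at 0 in WT heat. Scaling the nuclear rows of both libraries to a common sum would add 0.78 to every log2 ratio. On that scale 82.5% of the calls were higher (1154 higher and 244 lower), against 51.1% on the deposited scale, so the balance of higher and lower calls rests on the scale.

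The direction differed with the level and with the kind of row. Between 20 and 50 FPKM, 31.8% of 886 rows were higher and 18.3% lower. Between 1000 and 10000 FPKM, 7.26% of 179 rows were higher and 30.7% lower. Of the 17 rows of at least 10000 FPKM none was higher and 14 were lower. These 17 rows held 31.4% of all FPKM in WT heat and 50.6% in WT control. Rows inside a coding gene had a median difference of -0.32 (206 higher and 302 lower of 1113), and rows with no gene opposite one of 0.24 (206 higher and 133 lower of 705).

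**Figure D1:**
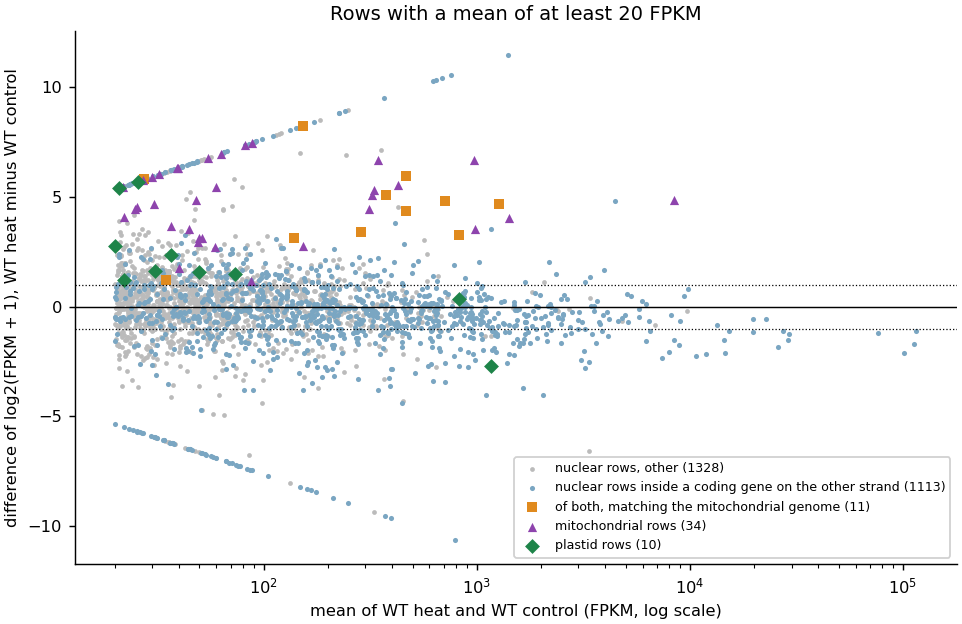
Each point is a row averaging 20 FPKM or more; the x axis is the mean of WT heat and WT control in FPKM on a log scale, the y axis the difference of log2(FPKM + 1), WT heat minus WT control, and dotted lines mark 2-fold. The 34 mitochondrial rows and the 11 nuclear rows that match the mitochondrial genome lie above the upper line, the 17 nuclear rows of at least 10000 FPKM lie below 0, and the straight bands at the top and bottom are rows listed at 0 in 1 of the libraries.

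Rows inside genes of the heat response were among the higher ones. The row AT3G07365, inside HSP17.4, a cytosolic small heat shock protein, had 8610.2 FPKM in WT heat against 306 FPKM in WT control, a difference of 4.81. Its values were 9026 FPKM in miR164OE heat and 287 FPKM in miR164OE control, so both heat libraries stood far above both controls. The row AT3G03215, inside PDX1.2, a heat-inducible member of the vitamin B6 synthase family, had 2138 FPKM in WT heat against 185 FPKM in WT control. PDX1.2 was not on the heat gene lists, and its row was picked by size after the values were seen. The row AT4G05910, inside HSFB2B, a class B heat shock factor, had 1646 FPKM in WT heat against 406 FPKM in WT control. In both rows the 2 miR164OE libraries were ordered the same way, at 1829.7 and 1374 FPKM in miR164OE heat against 199 and 338 FPKM in miR164OE control.

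Of the rows just named, all above 0 in both WT libraries, those inside HSP17.4 and PDX1.2 had the largest differences. The promoters of HSP17.4 and PDX1.2 are therefore shown. Each is the 250 bases before the annotated transcript start, read 5′ to 3′ on the gene's strand from the TAIR10.1 genome of RefSeq. HSP17.4 lies on the minus strand with its promoter at chr3:16984868-16985117, and PDX1.2 on the minus strand with its promoter at chr3:5445330-5445579. Capitals mark matches to the heat element in its 13-base form (GAANNTTCNNGAA or TTCNNGAANNTTC) or its 8-base core (GAANNTTC), searched on both strands. The core is part of both longer forms.
HSP17.4: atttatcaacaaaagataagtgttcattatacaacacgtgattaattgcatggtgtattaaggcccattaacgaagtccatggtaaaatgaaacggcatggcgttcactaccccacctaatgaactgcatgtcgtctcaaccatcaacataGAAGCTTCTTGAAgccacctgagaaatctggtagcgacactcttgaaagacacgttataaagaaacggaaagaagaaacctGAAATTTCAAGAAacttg
PDX1.2: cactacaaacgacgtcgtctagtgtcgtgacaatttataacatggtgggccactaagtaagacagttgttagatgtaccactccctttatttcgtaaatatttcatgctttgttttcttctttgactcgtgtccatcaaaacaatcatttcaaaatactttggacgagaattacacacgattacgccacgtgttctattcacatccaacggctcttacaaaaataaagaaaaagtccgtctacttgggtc
HSP17.4 held 2 matches to the 13-base form, and none was found in the PDX1.2, HSFB2B or MBF1C windows. Of 27441 promoters of nuclear coding genes, 9.55% held the core and 0.386% the 13-base form. Around rows of at least 300 FPKM inside a coding gene, 7 of 36 genes with a higher row had the core (19.4%), 10 of 122 with a lower row (8.20%) and 7.25% of 262 with neither. Among the 16 small heat shock protein genes 4 had the core and 2 the longer form, and among 43 light-harvesting and photosystem genes 1 had the core. A match is a description of these letters only.

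The row inside MBF1C, a transcriptional coactivator needed for heat tolerance, was AT3G04685, of 176 bases. It had 1371 FPKM in WT heat but was listed at 0 in WT control, while the miR164OE pair was closer, at 717 FPKM in heat and 488 FPKM in control. MBF1C's own row had 40.7 FPKM in WT heat against 25.8 FPKM in WT control, under 2-fold. Of the 26 heat shock factors and heat stress regulators listed, 4 had a row inside them at the minimum, and 3 of those rows were higher, beside 18.5% of all rows inside a coding gene. The third was AT5G03710, inside HSFA3, with 41.7 FPKM in WT heat and a listing at 0 in WT control, so that this row and the one inside MBF1C reached the minimum through WT heat only. The own rows of the 26 genes summed to 173.4 FPKM in WT heat and 217.2 FPKM in WT control. HSFC1's own row was the largest part of both sums, at 89.4 FPKM in WT heat and 172.9 FPKM in WT control. Of the 26 own rows, 9 had the larger value in WT heat and 4 the smaller. Many were at a few FPKM, and the same share over all nuclear rows was not counted. The other 13 were listed at 0 in both WT libraries, as were 18469 of all 32538 nuclear rows. HSFC1 did not pass 2-fold in either reading, and HSFA2, the main heat-induced factor, was listed at 0 in both WT libraries.

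The own rows of the small heat shock proteins were low. Summed over all 16 genes they held 198.7 FPKM in WT heat and 53.7 FPKM in WT control. Of the 16, 14 had the larger value in WT heat, many of them at a few FPKM. The same share over all nuclear rows was not counted, so nothing is read from that number. At the minimum stood AT5G59720, named HSP18.1 in the file, with 64.9 FPKM in WT heat against 25.1 FPKM in WT control, and HSP15.7, with 39.3 against 14.05 FPKM. Both were higher past 2-fold, and both were higher in miR164OE heat than in miR164OE control. HSP17.4's own row had 11.2 FPKM in WT heat but was listed at 0 in WT control. Larger chaperones did not reach the minimum, with 1 exception among 28. HSC70-1, a constitutive cytosolic HSP70, had 30.8 FPKM in WT heat and 32.8 FPKM in WT control. HSP101, the disaggregase of acquired heat tolerance, had 1.25 FPKM in WT heat and 2.64 FPKM in WT control, too few fragments to read a direction. The 28 own rows summed to 135.6 FPKM in WT heat and 97.5 FPKM in WT control, 17 of them larger and 9 smaller in WT heat. Here too the same share over all nuclear rows was not counted, so nothing is read from those numbers. In miR164OE the 28 own rows summed to 241.2 FPKM in heat and 48.5 FPKM in control. No gene of the endoplasmic reticulum folding list reached the minimum, and their 20 own rows summed to 74.3 FPKM in WT heat and 23.3 FPKM in WT control.

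**Figure D2:**
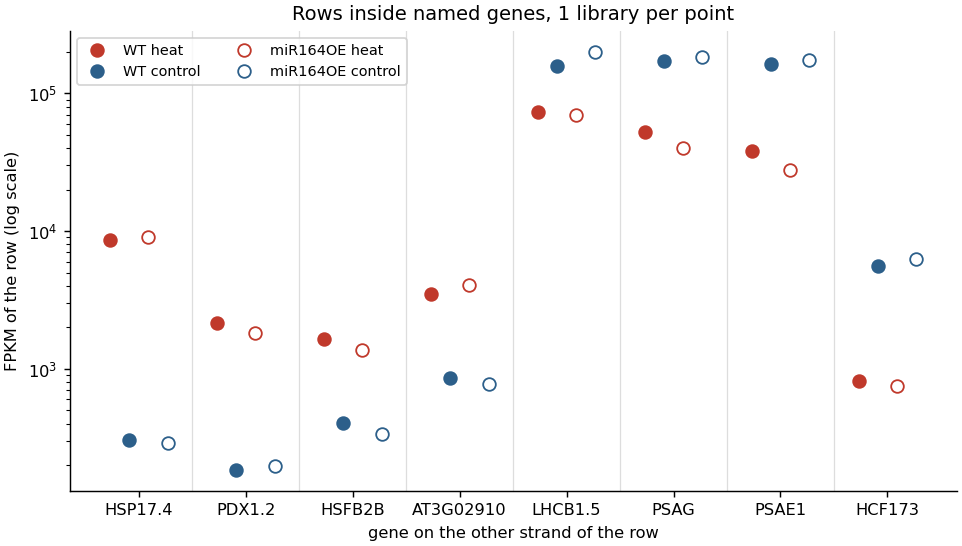
Each point is 1 library; the y axis is the FPKM, on a log scale, of the row lying inside the gene named on the x axis, filled for WT and open for miR164OE. For HSP17.4, PDX1.2, HSFB2B and AT3G02910 both heat libraries lie above both controls, and for LHCB1.5, PSAG, PSAE1 and HCF173 both lie below them.

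Further rows inside coding genes were picked by size after the values were seen, from rows above 0 in both WT libraries and at about 300 FPKM or more. Among the higher ones, AT3G01205, inside AT3G02910, which encodes an AIG2-like protein, had 3509 FPKM in WT heat against 856 FPKM in WT control. The own row of AT3G02910 was higher too, at 60.8 FPKM in WT heat against 12.3 FPKM in WT control. AT2G07325 and AT2G07335 are neighbours on chromosome 2 inside AT2G20710 and AT2G20720, genes for a tetratricopeptide and a pentatricopeptide repeat protein. They had 513 and 656 FPKM in WT heat against 118 and 160.3 FPKM in WT control. Among the lower ones, AT1G05253, inside HCF173, a factor needed to translate the plastid psbA transcript, had 814 FPKM in WT heat against 5615 FPKM in WT control. Rows inside SS3 (a starch synthase), EBF2 (an F-box protein that turns over ethylene regulators) and ABCC8 (an ABC transporter) had 121, 96.6 and 112 FPKM in WT heat against 1305, 701 and 914 FPKM in WT control. Of the 14 lowest such rows, 11 were also lower in miR164OE heat, beside 31.4% of all rows inside a coding gene at that level. The other 3 lay inside PGL1, HVA22K and FUC1, with 129, 0 and 442 FPKM in miR164OE heat against 164, 0 and 628 FPKM in miR164OE control.

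Clusters of lipid-transfer protein genes, which encode small secreted proteins that bind lipids, were looked at after extreme rows had been seen in them, so their counts are descriptions. The cluster around AIR1 on chromosome 4 has 14 rows, of which 5 reached the minimum, 4 of them higher and 1 lower, beside 22.7% and 21.8% over all nuclear rows. AT4G12495, inside AT4G12490, had 5998 FPKM in WT heat against 1888 FPKM in WT control. AT4G12543, inside AIR1B, had 775 FPKM in WT heat against 53.6 FPKM in WT control, and AT4G12555, inside AIR1, had 859 against 204 FPKM. AT4G12530, read from its own row, had 73.3 FPKM in WT heat but was listed at 0 in WT control. The lower row was that of AZI1, a gene of systemic defence priming, with 8.02 FPKM in WT heat against 36.8 FPKM in WT control. A second cluster lies on the same chromosome around AT4G22505, with 13 rows, 6 at the minimum, 3 of them lower and 1 higher. Its row AT4G22510, inside AT4G22513, had 126 FPKM in WT heat against 2091 FPKM in WT control, and AT4G22495, inside AT4G22505, had 58.2 against 728 FPKM. On chromosome 5 the row AT5G08275, inside the lipid-transfer gene AT5G55450, had 38.8 FPKM in WT heat against 851 FPKM in WT control. The own row of AT5G55450 went the other way, at 76.2 FPKM in WT heat against 6.13 FPKM in WT control. Genes in such clusters are similar in sequence, so reads may be divided between them.

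Of the 12 highest differences among rows of at least 300 bases, 9 were rows listed at 0 in WT control and 3 lay beside copies of ONSEN. PUB21, a U-box ubiquitin ligase at chromosome 5, 14887429 to 14889151 (TAIR10), had 367 FPKM in WT heat but was listed at 0 in WT control. Its neighbour GORK, an outward potassium channel of guard cells, ends 93 bases away on the other strand and had 138 FPKM in WT heat against 4.69 FPKM in WT control. The other rows listed at 0 in WT control were AT2G05915, AT1G68250, AT3G29633, AT5G41765, AT2G18193 and AT2G07738, with 499, 295, 242, 237, 228 and 306 FPKM in WT heat, and AT3G02985 (inside GGPS3) and AT4G05155, with 135 and 128 FPKM. AT2G07738 is one of the rows that match the mitochondrial genome. All 12 were also higher in miR164OE heat than in miR164OE control, where the share of all these nuclear rows called higher was 18.2%.

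ONSEN is a copia-type retrotransposon known to be transcribed under heat from the promoter in its long terminal repeats. The annotation holds 8 copies as pseudogenes, 97.5% to 100% identical to AT3G61330, and none of them has a row. The set of rows beside them was drawn up after the values were seen. Within 2000 bases of a copy lay 17 rows, of which 5 reached the minimum, with differences of 5.47 to 7.15. They had 143 to 708 FPKM in WT heat against 1.30 to 3.997 FPKM in WT control. All 5 reached the minimum through WT heat only and so had to differ, and no count is read from them, beside 22.7% higher over all nuclear rows. All 5 lie on the strand other than that of the copy.

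AT1G21940, 850 bases from the 5′ side of a copy on chromosome 1, had 708 FPKM in WT heat against 3.997 FPKM in WT control. AT5G13200, a GRAM domain gene 231 bases from the 3′ side of a copy on chromosome 5, had 483 against 2.99 FPKM, and LECRK56, which encodes a lectin receptor kinase and lies 289 bases from a 3′ side, had 294 against 1.30 FPKM. AT1G11270, an F-box gene whose locus spans a copy, had 155 FPKM in WT heat against 2.53 FPKM in WT control, and AT3G61320, a bestrophin-like gene, had 143 against 1.52 FPKM. In miR164OE the same 5 rows had 172 to 914 FPKM in heat against 1.25 to 5.98 FPKM in control. The other 12 rows were below the minimum, 1 of them higher and 2 lower past 2-fold, and 7 were listed at 0 in both WT libraries. STP1, a hexose transporter 411 bases from the 5′ side of a copy and on its strand, was listed at 0 in WT heat and had 9.55 FPKM in WT control.

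**Figure D3:**
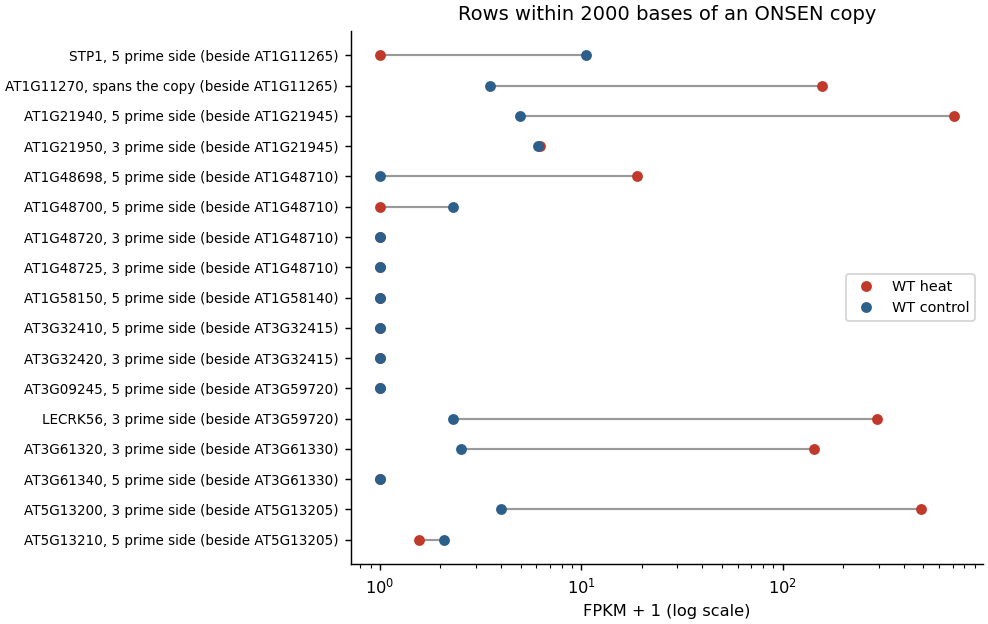
FPKM + 1 on a log scale in WT heat (red) and WT control (blue) for the 17 rows within 2000 bases of an ONSEN copy, ordered by copy and labelled with the side of the copy on which they lie. In 5 rows WT heat lies at 143 FPKM or more and WT control at 3.997 FPKM or less, and 7 rows lie at 0 in both.

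At the other end, 10 of the 12 lowest differences were rows listed at 0 in WT heat, and 6 of the 12 lay inside a coding gene. AT5G03615, a long non-coding RNA locus of 389 bases with no gene opposite (chromosome 5, 7891346 to 7891734), had 67.6 FPKM in WT heat against 6687 FPKM in WT control, a difference of -6.61. In miR164OE it had 96.3 FPKM in heat against 6986 FPKM in control, so both controls lay far above both heat libraries. AT3G51330, an aspartyl protease gene, had 0.59 FPKM in WT heat against 171 FPKM in WT control. The adjacent row AT3G51325 was listed at 0 in WT heat and had 62.6 FPKM in WT control. AT1G13540 and AT2G24692, a BTB/POZ domain gene, were listed at 0 in WT heat but had 76.8 and 71.2 FPKM in WT control. The remaining 8 were AT4G09785, AT1G04877, AT5G02525 (inside UCH1, a ubiquitin hydrolase), AT1G05203, AT1G09907 (inside WRI4, a factor of wax synthesis), AT5G45475, AT5G00910 and AT5G02155, with 67.4 to 113 FPKM in WT control. Of the 12 rows, 9 were also lower in miR164OE heat, beside 22.9% of all nuclear rows at the minimum.

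Rows under 300 bases gave the largest differences but the fewest fragments per FPKM. AT5G64395, a row of 96 bases inside HEN4, had 2817 FPKM in WT heat but was listed at 0 in WT control, while in miR164OE it was listed at 0 in heat and had 1698 FPKM in control. U5.1b, a spliceosomal RNA gene of 101 bases, was listed at 0 in WT heat and had 1587 FPKM in WT control, against 577 FPKM in miR164OE heat and a listing at 0 in miR164OE control. These rows went opposite ways in the 2 genotypes. AT3G48298, inside CYP71A23, had 1514 FPKM in WT heat but was listed at 0 in WT control. AT3G08235 and AT2G47885 were listed at 0 in WT heat but had 794 and 744 FPKM in WT control.

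Genes with a symbol, at least 300 bases and no annotated gene on the other strand numbered 332 at the minimum. No annotated gene lies opposite their exons, but reads from neighbouring loci, from genes on the same strand or from near-identical copies are not excluded. Which strand of the locus they count is not settled. Of these 81 were higher (24.4%) and 64 lower (19.3%), with a median difference of 0.11, and the 16 at each end were taken after the values were seen. Besides PUB21, LECRK56 and GORK, the 16 higher genes included KTI1, a Kunitz-type trypsin inhibitor, with 124 FPKM in WT heat against 4.94 FPKM in WT control. Among the other 12 were AGP7, FLA5, PME42, XERO2, MAF4 and NRT2.6. AGP7, an arabinogalactan protein, had 47.4 against 1.64 FPKM, FLA5, a fasciclin-like one, 39.4 against 2.79 FPKM, and PME42, a pectin methylesterase, 188 against 19.1 FPKM, in WT heat and WT control. XERO2, a dehydrin, had 92.4 FPKM in WT heat against 13.8 FPKM in WT control. MAF4, a relative of the flowering repressor FLC, had 51.9 FPKM in WT heat against 7.58 FPKM in WT control. NRT2.6, of the nitrate transporter family, had 50.2 FPKM in WT heat against 3.44 FPKM in WT control. Of these 16 rows, 14 were also higher in miR164OE heat, beside 25.7% of all rows with no gene opposite. XERO2 was not, at 73.3 FPKM in miR164OE heat and 55.6 FPKM in miR164OE control.

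Among the 16 lowest, MYB60, a guard cell transcription factor linked to stomatal opening, had 4.88 FPKM in WT heat against 70.1 FPKM in WT control. SEN1, a gene known to be induced by darkness and senescence, had 6.61 FPKM in WT heat against 92.4 FPKM in WT control. CYS4, a cystatin, had 14.3 FPKM in WT heat against 113 FPKM in WT control. The sulfate transporter gene AT1G78000 had 71.0 FPKM in WT heat against 474 FPKM in WT control, and 96.3 FPKM in miR164OE heat against 472 FPKM in miR164OE control. AKRP, an ankyrin repeat protein needed for plastid development, had 3.12 FPKM in WT heat against 70.6 FPKM in WT control. Photosystem genes made up 4 of the 16. In miR164OE heat 11 of the 16 were also lower, beside 17.9% of all rows with no gene opposite.

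Light-harvesting and photosystem genes were lower as a group. Of 43 genes, 21 had an own row at the minimum, and 17 of these were lower and none higher, beside 21.8% lower over all nuclear rows. Their median difference was -1.75, beside -0.06 over all nuclear rows. Many of the 21 rows, among them LHCA1, LHCB1.1 and PSAL, had under 20 FPKM in WT heat and reached the minimum through WT control. PSAG's row reached it through WT heat. The minimum thus favoured lower calls here, so the count and the median are descriptions only. Summed over all 43 genes without a minimum, the own rows held 659.2 FPKM in WT heat and 2160.5 FPKM in WT control. WT heat had the smaller value for 39 of them, and the same share over all nuclear rows was not counted. The list was drawn up with earlier results of these data known, and whole seedlings do not tell fewer cells of a type from less RNA per cell.

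Antenna proteins of photosystem I had a wide range. LHCA1 had 13.6 FPKM in WT heat against 146 FPKM in WT control, the lowest difference of the list at -3.33, and LHCA4 had 59.5 against 264 FPKM. LHCA2 did not pass 2-fold, at 20.3 against 37.2 FPKM. The 6 antenna genes of photosystem II at the minimum were all lower, with LHCB1.3 at 25.5 FPKM in WT heat against 169 FPKM in WT control and LHCB5 at 12.4 against 57.7 FPKM. LHCB1.1, LHCB1.2 and LHCB1.3 are near-identical copies, so reads may be shared between their rows. Among photosystem I subunits, PSAD2 had 9.26 FPKM in WT heat against 60.1 FPKM in WT control and PSAL 6.02 against 36.1 FPKM. Among oxygen-evolving proteins, PSBO1 had 58.7 FPKM in WT heat against 149 FPKM in WT control, while PSBO2 did not pass 2-fold. In miR164OE 11 of the 21 own rows were lower, 10 of them also lower in WT, beside 22.9% of all nuclear rows at the minimum.

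The rows inside photosystem genes were far above these genes' own rows in level. They were lower in 4 of 4, with a median of -1.59, beside 27.1% of all rows inside a coding gene. For 3 of the 4 the level was at least 10000 FPKM, where 82.4% of the 17 nuclear rows were lower, with a median of -1.26. AT2G08665, inside LHCB1.5, had 72862 FPKM in WT heat against 158697 FPKM in WT control. AT1G55673, inside PSAG, had 52342 FPKM in WT heat against 171972 FPKM in WT control, and AT4G28755, inside PSAE1, had 38249 against 164547 FPKM. These were the 3 highest rows by the mean of both WT libraries. PSAG's own row went the other way, at 32.4 FPKM in WT heat and 19.7 FPKM in WT control, under 2-fold. On the common nuclear sum 9 of 19 own rows and 1 of 4 inside rows stayed lower past 2-fold, with medians of -0.83 and -0.81, and PSAG's own row was higher.

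**Figure D4:**
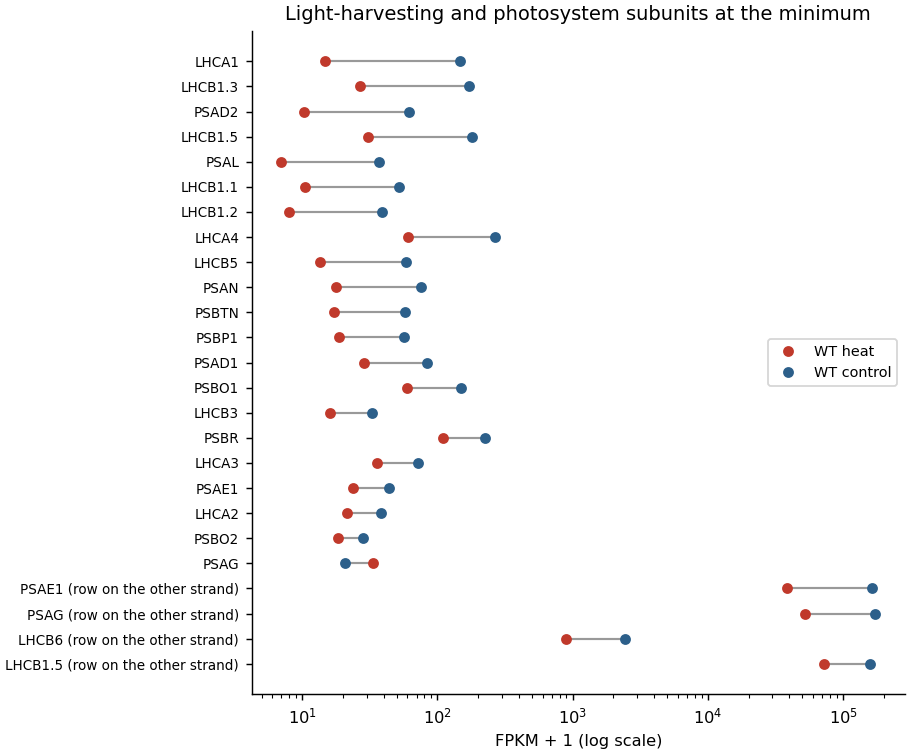
FPKM + 1 on a log scale in WT heat (red) and WT control (blue) for the 21 own rows of light-harvesting and photosystem genes at the minimum, and below them the 4 rows on the other strand of such a gene. WT heat lies left of WT control in every line but the own row of PSAG.

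The other 7 of the 10 highest nuclear rows lay inside CWLP, RABE1b, PSRP5, CSP41A, VAR2, AT2G46600 and RPI3. The row inside VAR2, a plastid protease of the FtsH family that repairs photosystem II, had 11288 FPKM in WT heat against 40626 FPKM in WT control. The row inside PSRP5, a plastid ribosomal protein, had 15076 against 42916 FPKM, and that inside RABE1b, a plastid translation elongation factor, had 17169 against 41239.8 FPKM. Of the 10 highest rows, 9 were lower. The exception, a row of 99 bases, lay inside AT2G46600, a calcium-binding EF-hand gene, with 18431 FPKM in WT heat and 27265 FPKM in WT control. In miR164OE that row was lower, at 3031 FPKM in heat against 47672 FPKM in control. On the common nuclear sum 2 of the 10 passed 2-fold, the rows inside PSAE1 and VAR2.

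Carbon fixation and photorespiration genes were divided between lower and under 2-fold. Of 4 Calvin cycle genes at the minimum, RCA, the activase of Rubisco, had 55.2 FPKM in WT heat against 178 FPKM in WT control, and RBCS3B, a Rubisco small subunit, had 46.0 against 98.2 FPKM. RBCS1A and CA1 did not pass 2-fold, RBCS1A having 72.3 FPKM in WT heat and 92.1 FPKM in WT control. The row inside RPI3 had 12215 FPKM in WT heat against 27452 FPKM in WT control. Of 4 photorespiration genes, AGT1, a peroxisomal aminotransferase, was lower, at 13.2 against 36.0 FPKM, and GOX1, GOX2 and GGT1 did not pass 2-fold. Of the 6 shoot markers at the minimum, which overlap these lists, 4 were lower, beside 21.8% over all nuclear rows, with a median of -1.06. Of these, LHCB3 and LHCB5 had reached the minimum through WT control. On the common nuclear sum no Calvin cycle gene and 1 shoot marker passed 2-fold.

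Other lists had few rows at the minimum. Of the SPL genes, which promote the change from juvenile to adult leaves, none had an own row there. Of 3 rows inside them at the minimum, 2 were lower, those inside SPL3 and SPL4. Over all rows inside a coding gene 27.1% were lower. SPL3's own row went the other way and had 26.97 FPKM in WT heat and 2.16 FPKM in WT control, and the 5 own rows summed to 41.6 FPKM in WT heat and 8.9 FPKM in WT control. The row inside SPL3 had 45.2 FPKM in WT heat against 309.8 FPKM in WT control, and 18.4 FPKM in miR164OE heat against 284 FPKM in miR164OE control. The row inside SPL4, of 197 bases, was listed at 0 in WT heat and had 102 FPKM in WT control, through which it reached the minimum. It had 61.1 FPKM in miR164OE heat and 36.8 FPKM in miR164OE control. The row inside SPL15 did not pass 2-fold, at 22.8 FPKM in WT heat and 17.9 FPKM in WT control. ERD10, a dehydrin, was the gene of the abscisic acid and dehydration list that passed 2-fold, at 194 FPKM in WT heat against 74.0 FPKM in WT control. CYP79B3, an enzyme of indole glucosinolate synthesis, had 16.1 FPKM in WT heat against 47.4 FPKM in WT control. Rows inside CRD1 of chlorophyll synthesis, the superoxide dismutase gene CSD3 and the wax exporter gene ABCG11 were lower, at 38.0, 28.7 and 1089 FPKM in WT heat against 152, 68.5 and 2406 FPKM in WT control. The row inside FLC, the flowering repressor, had 101 FPKM in WT heat and 88.5 FPKM in WT control. LUX of the circadian clock, CAT3 among antioxidant enzymes, PETE1 and FNR1 of electron transport, and BCS1, a mitochondrial stress gene, did not pass 2-fold.

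Mitochondrial rows were higher without exception at the minimum. All 34 passed 2-fold upwards (100%) and none was lower (0%), by 1.17 to 7.48 with a median of 4.86. Their median level was 98.7 FPKM in WT heat and 5.06 FPKM in WT control, and 10 of them were listed at 0 in WT control. Since 28 of the 34 had less than 20 FPKM in WT control and reached the minimum through WT heat, the sum over all mitochondrial rows is given as well. Over all 152 mitochondrial rows the sum was 28927 FPKM in WT heat, 2.55% of the library, and 1172 FPKM in WT control, 0.0616%. The 118 rows under the minimum included 86 at 0 in both WT libraries. The age and strand limits given above apply here, and no strand or opposite gene is known for these rows.

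ORF107A, an open reading frame with no assigned function listed at 11918 to 12241 of the mitochondrial genome, held 56.0% of the mitochondrial sum in WT heat and 48.0% in WT control. It had 16209 FPKM in WT heat against 563 FPKM in WT control. Without it the mitochondrial sum was 12718 FPKM in WT heat and 609 FPKM in WT control, so the sum of the other rows moved the same way. ORF131 had 2688 FPKM in WT heat against 160 FPKM in WT control, ORF240B 1925 against 17.8 FPKM, and CCB206, a membrane protein of cytochrome c maturation, 1804 against 152 FPKM. ORF116, ORF167, ORF122C and ORF159 had 834, 683, 645 and 627 FPKM in WT heat against 17.0, 5.58, 15.2 and 17.3 FPKM in WT control. These 8 rows had the highest mean levels, and none of them encodes a core subunit of the respiratory chain. The 26 rows named as open reading frames summed to 26067.6 FPKM in WT heat and 973 FPKM in WT control, with a median difference of 5.21, and the 8 rows with another name to 2293 FPKM in WT heat and 175 FPKM in WT control, with a median of 4.26.

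Respiratory genes were lower in level than the 8 mitochondrial rows of highest mean level but changed the same way. COX1 and COX2, subunits of cytochrome c oxidase, had 93.4 and 90.3 FPKM in WT heat against 9.91 and 9.32 FPKM in WT control. NAD4L, of complex I, had 109 FPKM in WT heat but was listed at 0 in WT control, and NAD5A, also of complex I, had 49.8 against 1.15 FPKM. RRN26, the large ribosomal RNA, had 48.7 FPKM in WT heat against 1.26 FPKM in WT control. The smallest difference was that of ORF105B, at 121 FPKM in WT heat against 53.1 FPKM in WT control. ORF131 and ORF315 are listed at the same locus, so their values are not independent. In miR164OE all 34 rows were higher in heat too, and the mitochondrial sum was 34963 FPKM in heat and 1350 FPKM in control.

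The mitochondrial sequence carried by chromosome 2 went with them. A near-complete copy of the mitochondrial genome lies near the centromere of that chromosome, and 11 nuclear rows at the minimum matched the mitochondrial genome at 99.8% identity or more. All 11 were higher, with a median of 4.70. AT2G07739 had 2463 FPKM in WT heat against 93.9 FPKM in WT control, AT2G05205 had 1502 against 155 FPKM, and AT2G07835 had 1366 against 47.4 FPKM. Their sum was 9049 FPKM in WT heat and 469 FPKM in WT control. Reads from the nuclear and the organelle copy cannot be told apart at this identity, so these rows are uncertain as nuclear genes.

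**Figure D5:**
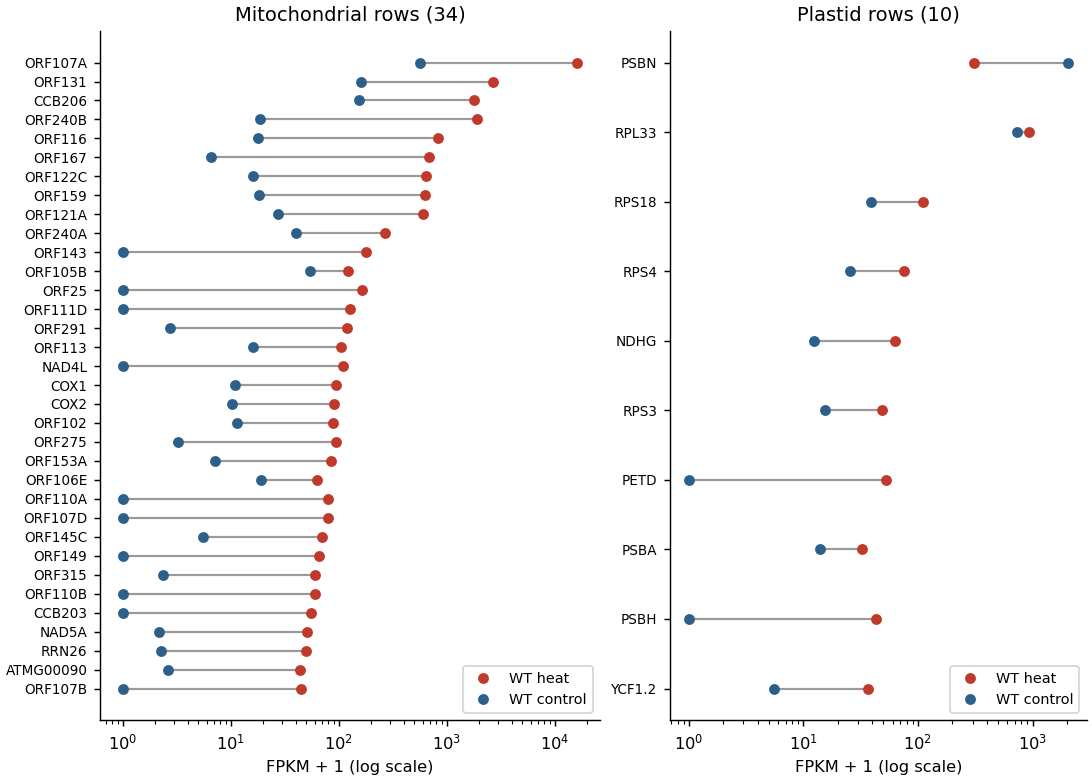
FPKM + 1 on a log scale in WT heat (red) and WT control (blue) for the 34 mitochondrial rows (left) and the 10 plastid rows (right) at the minimum, ordered by mean level. Every mitochondrial row lies higher in WT heat, with ORF107A at the top, and PSBN is the plastid row that lies lower.

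Plastid rows were few and low. Of the 10 at the minimum, 8 were higher (80%) and 1 was lower (10%), together 90%, with a median difference of 1.60, and 123 lay under the minimum. WT control had less than 20 FPKM in 6 of the 10, which reached the minimum through WT heat. PETD, a subunit of the cytochrome b6f complex, had 51.2 FPKM in WT heat but was listed at 0 in WT control. PSBH, of photosystem II, had 42.1 FPKM in WT heat but was likewise listed at 0 in WT control. YCF1.2 had 35.8 FPKM in WT heat against 4.49 FPKM in WT control, and NDHG, of the plastid NADH dehydrogenase-like complex, 62.5 against 11.3 FPKM. Ribosomal protein genes RPS3, RPS4 and RPS18 had 47.2, 74.8 and 109 FPKM in WT heat against 14.4, 24.7 and 38.0 FPKM in WT control. PSBA, the D1 protein of photosystem II, had 31.4 against 13.04 FPKM. As for the mitochondrial rows, the age and strand limits apply, and no strand or opposite gene is known for the plastid rows.

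The sum over all 133 plastid rows was 2149 FPKM in WT heat and 2965 FPKM in WT control, which is 0.189% and 0.156% of the libraries. The lower row was PSBN, a row of 132 bases, with 307 FPKM in WT heat against 2023 FPKM in WT control and 460.1 FPKM in miR164OE heat against 2878 FPKM in miR164OE control. RPL33, of 201 bases, did not pass 2-fold, at 922 FPKM in WT heat and 725 FPKM in WT control. Without PSBN and RPL33 the rows at the minimum were higher in WT heat, 6 of them having reached it through that library. In miR164OE 7 of the 10 rows were higher and 1 lower, and RPS4 had 7.28 FPKM in heat and 11.5 FPKM in control.

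The miR164OE libraries share no library with the WT pair and were read at the same nuclear rows, of which 41.1% passed 2-fold, 18.2% higher and 22.9% lower in miR164OE heat than in miR164OE control. Rows called higher in both numbered 298, which is 53.7% of those higher in WT and 67.0% of those higher in miR164OE. Rows called lower in both numbered 318, 59.9% of those lower in WT and 57.0% of those lower in miR164OE. Opposite calls were made for 35 rows higher in WT and 29 rows lower in WT. From 300 FPKM upwards the shared calls were 32 of 50 higher rows and 110 of 143 lower rows of WT, with 2 and 1 opposite calls, where 7.95% of all rows of that level were higher and 30.8% lower in miR164OE. Under 50 FPKM they were 149 of 282 and 87 of 162, where 24.9% of all rows were higher and 21.1% lower in miR164OE.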

How the data were processed

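The authors deposited 1 table of FPKM values with 1 column for each of 4 libraries. Per the submitters' processing notes it was made with bcl2fastq 2.1.7, TopHat and Cufflinks on TAIR10. Not given in the sources used here were the versions of the last 2 tools, the annotation, the strand setting and the depth, so no interval or floor is given. RNA was extracted with Trizol and libraries were made with an Agilent SureSelect strand-specific kit, per the labels' protocols.

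Row codes were matched to the TAIR10.1 annotation of RefSeq (32538 rows; 22475 of 22477 single-gene loci had the same coordinates), which gave strand, exon length and the genes opposite a row. Mitochondrial and plastid rows were not matched. Differences of log2(FPKM + 1), with a pseudocount of 1, were called at 1 or more over rows averaging 20 FPKM or more. Fold changes on this scale are understated for low rows. No test is possible with 1 library per group. Fragment numbers were estimated from the FPKM worth of 1 fragment on a row of 1 kb, about 1.75 in WT heat and 1.95 in WT control. Similarity to the organelle genomes and to ONSEN was searched with blastn 2.17.0 (at least 98% identity over 80% of the row for the organelles). Tables were handled with pandas 2.3.3, and the calling rule was tested on simulated data.

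Named rows were the 12 highest and 12 lowest of at least 300 bases, 3 shorter ones each way, the 10 highest levels, 8 mitochondrial rows, the plastid rows, and up to 4 own and 3 opposite rows per list of 21 lists (348 genes). The 16 genes each way with no gene opposite, the further rows inside coding genes, the lipid-transfer clusters and the ONSEN neighbours were added after the values were seen. So was the row inside PDX1.2. All members and lists were chosen with earlier results of these data known. Alternatives were other pseudocounts, minimums, scales, lengths and row classes. Replicates were not available, so none could be left out. The values of 1 gene are not reported here.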

Additional observations from a re-analysis of the deposited data

Results flagged for a closer look

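Among the named rows, 4 passed 2-fold in one direction in WT and in the other in miR164OE. The difference between the genotypes was not tested, since each group was 1 library. AT5G64395, a row of 96 bases inside HEN4, had a heat difference of 11.46 in WT and -10.73 in miR164OE. U5.1b (AT3G08605), of 101 bases, had -10.63 in WT and 9.17 in miR164OE. Both are short rows listed at 0 in 1 library of each pair. AT1G05203, inside AT1G15810, had -6.52 in WT, while in miR164OE it had 15.0 FPKM in heat and was listed at 0 in control. AZI1 (AT4G12470) had -2.07 in WT and 2.17 in miR164OE, from 8.02 and 36.8 FPKM in WT heat and WT control and 35.2 and 7.03 FPKM in miR164OE heat and miR164OE control.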

How the results depend on the processing

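No paired analysis was possible because each group was 1 library with no test, and no replicate could be left out for the same reason. No direction of a called value turned under the alternatives run. The counts moved with the row minimum. At a mean of 5 FPKM, 2353 nuclear rows passed 2-fold (1346 higher, 1007 lower), 56 mitochondrial rows (56 higher) and 30 plastid rows (28 higher, 2 lower). At 100 FPKM the numbers were 412 nuclear (150 higher, 262 lower), 10 mitochondrial (10 higher) and 1 plastid (0 higher). With no minimum they were 7428 nuclear (4249 higher, 3179 lower), 65 mitochondrial (65 higher) and 39 plastid (37 higher, 2 lower). After setting the nuclear sums equal, 1154 nuclear rows were higher and 244 lower, 15 plastid rows passed (14 higher), and medians were -0.83 for own and -0.81 for opposite rows of photosystem genes and -0.30 for shoot markers. Of the named rows, 20 lost their call on that scale and 9 gained one. Shoot markers had a median of -0.95 with a pseudocount of 5 and -0.79 over rows with no gene opposite. Over such rows 339 nuclear rows passed (206 higher, 133 lower). With rows of at least 300 bases, 0 plastid rows were lower. Setting the nuclear median to 0 ended the calls of LHCA3, LHCB3 and PSBR. The rows opposite a gene could not be left out for organelle rows, whose strand is not known. After the data were seen, a minimum of 20 estimated fragments and leaving out the rows that match the mitochondrial genome were added. No count of nuclear rows past 2-fold moved past 1.5 times. With at least 20 estimated fragments, 78 nuclear rows were higher and 64 lower past 8-fold, against 148 and 114. The higher rows listed at 0 in WT control fell from 106 to 36, and the lower rows listed at 0 in WT heat from 69 to 22. Depth is unknown, and rows under 300 bases rest on few fragments.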
